A study of Mus musculus with 10 samples.

Results

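The 43 genes described here encode the proteins that copy DNA in S phase, from the complexes that mark origins to the enzymes that supply nucleotides. They were chosen by name from what their products do, and all 43 were on the array, through 48 probes, among 48999 features (20968 named genes and 28031 probes without a gene name). Of the 43, 42 were well above background on all 10 arrays by the scanner software's call. Ccne2, the gene of the second E-type cyclin, was well above background on 0 arrays and was not tested.

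The study measured RNA in LSK cells (lineage-negative, Kit-positive, Sca-1-positive bone marrow cells, a fraction rich in blood stem cells and early progenitors) of C57BL/6 mice, on 10 Agilent arrays with 1 colour. Cells had been transplanted and were later sorted as CD45.2-positive LSK cells. Ezh2, the methyltransferase of Polycomb repressive complex 2, was deleted with tamoxifen through a Cre-Ert transgene. The question the labels pose is how loss of Ezh2 and the diseases that follow it change expression.

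The control genotype was Cre-Ert, which carries the transgene with no floxed Ezh2, and it had 1 array at 3 months and 1 at 9-12 months after transplantation. The deleted genotype was Cre-Ert;Ezh2fl/fl. It had 1 array at 3 months with no disease and, at 9-12 months, 1 array labelled as a mixture of diseases, 2 labelled MDS (myelodysplastic syndrome), 3 labelled MDS/MPN (myelodysplastic and myeloproliferative neoplasm) and 1 whose disease was not determined. MDS/MPN replicate 1 bears the letters TC and replicate 3 the letters CMMoL, which the labels do not explain. The design text speaks of 3 mice at 3 months, but each group there has 1 array, and the labels do not say whether mice were pooled. The labels do not name the promoter of Cre-Ert. The titles of the 6 arrays with a disease entry other than the mixture carry a different code each, and that of the undetermined array is also marked 2nd, but the labels do not say that a code stands for a mouse. The p-values measure the spread between these arrays.

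DNA replication starts when the origin recognition complex, with Cdc6 and Cdt1, loads the MCM2-7 helicase onto DNA in G1. Cyclin E with Cdk2, and other kinases, then let Cdc45 and the GINS complex turn the loaded helicase into a moving one. Polymerases, the sliding clamp and nucleotide synthesis follow. Most of these genes are transcribed at the G1 to S transition under E2F factors, so in blood their RNA is known to be low in resting stem cells and high in dividing progenitors. In a bulk array, fewer dividing cells and less RNA per cell cannot be told apart.

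Levels are log2 intensities over the 75th percentile of the array, and they are compared between arrays for the same gene and not between genes. That percentile lay between 78.7 and 301.7 intensity units, highest on MDS/MPN replicate 2, and 32.5% to 47.5% of probes were well above background. Both 3-month arrays were on slide 1 and the other 8 on slide 2, so time and slide cannot be told apart. On slide 2 the 3 MDS/MPN arrays and the undetermined array lay in the second line, and the control, mixed and MDS arrays in the first. The deposited value table pairs its columns with the opposite times for 4 arrays: the columns labelled 9-12 months of the control and the mixed arrays hold the intensities of slide 1, and the 3-month columns hold those of slide 2. Genotypes were the same in both sources, and the times given here follow the labels of the scanner files. The LSK markers Kit, Ly6a, Cd34, Flt3 and Ptprc were well above background on all 10 arrays, but their levels differed between arrays. Kit was between 3.86 and 4.11 on the MDS/MPN, undetermined and 3-month deleted arrays and between 4.74 and 5.23 on the others. Ly6a did not part the arrays in this way. The Ezh2 probe read 2.63 and 2.14 on the control arrays of slides 2 and 1 and between 2.13 and 3.35 on the 8 deleted arrays. No source used here places this probe inside or outside the deleted part, so it does not check the genotype labels.

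The replication genes as a group differed between arrays of the same label as well as between labels. Their median level was 4.61 on the control array at 9-12 months, 4.81 on the mixed array, 4.59 and 4.18 on the MDS arrays, 5.05, 4.44 and 4.95 on MDS/MPN replicates 1 to 3, and 5.49 on the undetermined array. On slide 1 it was 4.09 on the control array and 5.32 on the deleted array. The undetermined array held the highest value of the 10 for 22 of 42 genes, beside 29.2% of features well above background on all 10 arrays, and the 3-month deleted array for 11, beside 18.3%. The 3-month control array held the lowest value for 24, beside 20.8%. Among the 6 deleted arrays of slide 2 other than the mixed one (hereafter the 6 deleted arrays of disease), the undetermined array was highest for 31 genes (73.8%, against 40.5% of those features), and MDS replicate 2 was lowest for 27 (64.3%, against 16.2%). With quantile normalization these counts were 19 and 28, beside 23.8% and 16.2% of those features. The order of the arrays depended on the scaling: the median difference of the genes from the control array of slide 2 was 0.72 on the undetermined array but 0.20 under quantile normalization and 0.15 under normexp background correction with quantile normalization, and that of MDS/MPN replicate 2 was -0.25 but 0.13 under both.

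**Figure D1:**
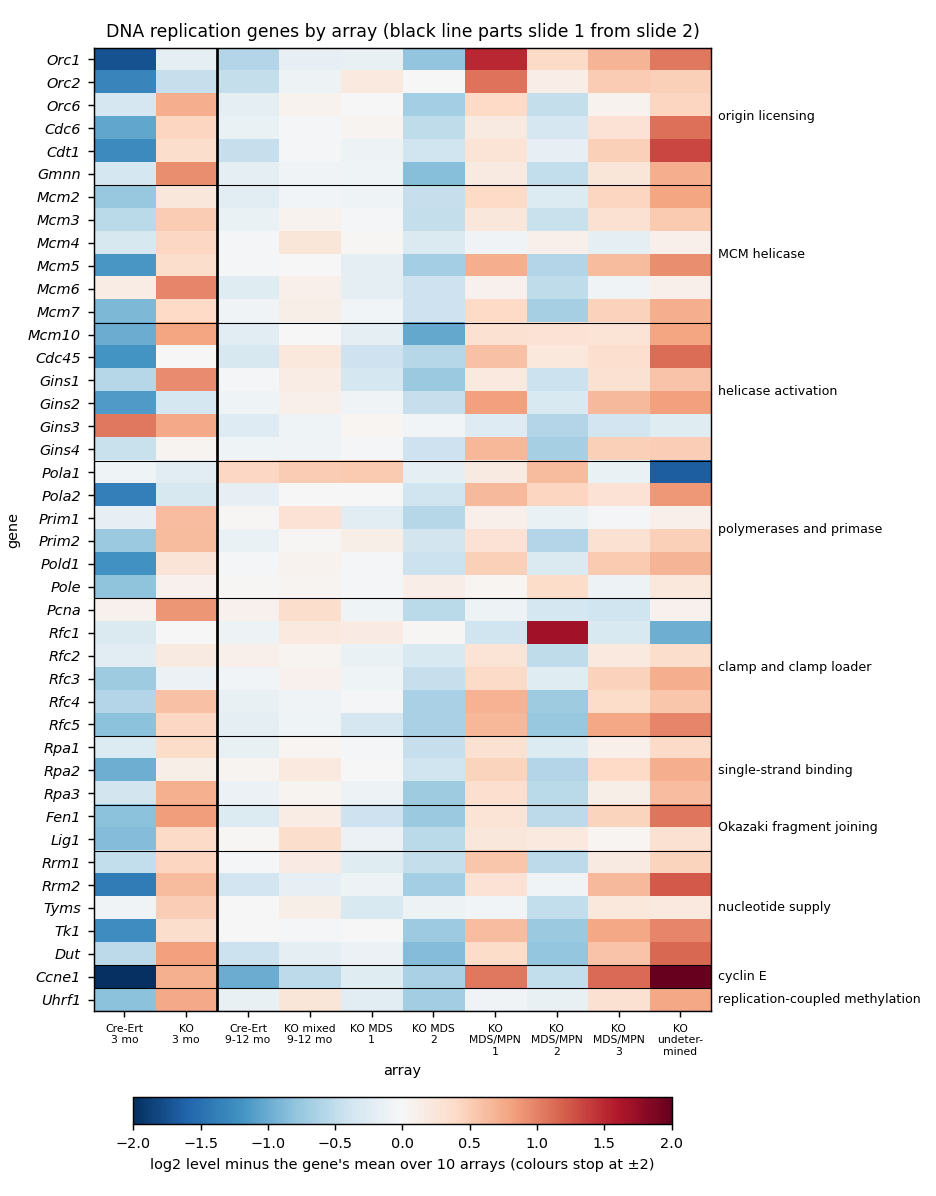
Level of 42 replication genes (rows, grouped by role) on the 10 arrays (columns), as log2 level minus the gene's mean over the arrays; red is higher and blue lower, and KO marks the deleted arrays. The 3-month control array is blue in most rows and the undetermined array red in most, with Pola1 and Rfc1, the 2 genes that are lowest there, among its exceptions.

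Cyclin E1 differed most between arrays. Ccne1 encodes the cyclin that activates Cdk2 at the start of S phase. Its level was 1.05 on the 3-month control array and 4.32 on the 3-month deleted array. At 9-12 months it was 2.61 on the control array and 3.07 on the mixed array. It was 3.35 and 2.95 on the MDS arrays, 4.66, 3.11 and 4.73 on the MDS/MPN arrays, and 6.16 on the undetermined array. Each of the 8 deleted arrays was above the control array of its slide. Over the 6 deleted arrays of disease its SD was 1.25 around a mean of 4.16, while 1.71% of the features well above background on those arrays had a larger SD. The median SD of the 42 genes, 0.51, lay beside 0.49 for those features.

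No replication gene passed the test between genotypes. With all 10 arrays and the slide as a block, Ccne1 was 2.08 ± 0.86 (SE, n = 8 deleted and 2 control arrays) higher in deleted cells, with an adjusted p = 0.846 by limma over all features. The fit treats the 8 deleted arrays as independent, but the labels do not say whether the mixed array holds mice of the others. A second Ccne1 probe, well above background on 6 arrays, differed by 1.33 between the 6 deleted arrays and the control array of slide 2, against 1.55 for the brighter probe, but by -0.26 between the mixed and the control array, against 0.46. In this fit 0 of 42 genes were called, as were 0 of 22367 features (0%). Without adjustment, 2 genes had p under 0.05, Ccne1 and Orc2, against 5.53% of all features. The genes' differences were mostly positive all the same: 40 of 42 were above 0, with a median of 0.54, where 53.3% of all features were above 0 with a median of 0.03. That median rests on both control arrays: it was 0.16 without the 3-month control array and 1.09 without the 9-12 month control array. The 1.09 is the difference between the 3-month deleted and control arrays alone, because the slide block then leaves slide 2 with no control. With all arrays the median was 0.29 under quantile normalization and 0.27 under normexp. The count of features called was 177 without the 3-month control array and 154 without the 3-month deleted array, with 0 of the 42 genes among them.

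After Ccne1, the largest differences in this fit were those of Orc1 at 1.17 ± 0.57, Rrm2 at 1.09 ± 0.52 and Cdt1 at 1.01 ± 0.47 (SE, n = 8 and 2), with adjusted p of 0.947, 0.929 and 0.908 by limma. Orc1 encodes the largest subunit of the origin recognition complex, Rrm2 the small subunit of ribonucleotide reductase, and Cdt1 a loader of the MCM helicase. The genes with a negative difference were Pola1, the catalytic subunit of polymerase alpha, at -0.33 ± 0.56, and Gins3, a subunit of the GINS complex, at -0.09 ± 0.28. Every deleted array lay above the control array of its slide for Ccne1, Cdt1 and Orc2, which is 3 of 42 genes beside 5.45% of all features, and every one lay below it for 0 genes, beside 5.47%.

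**Figure D2:**
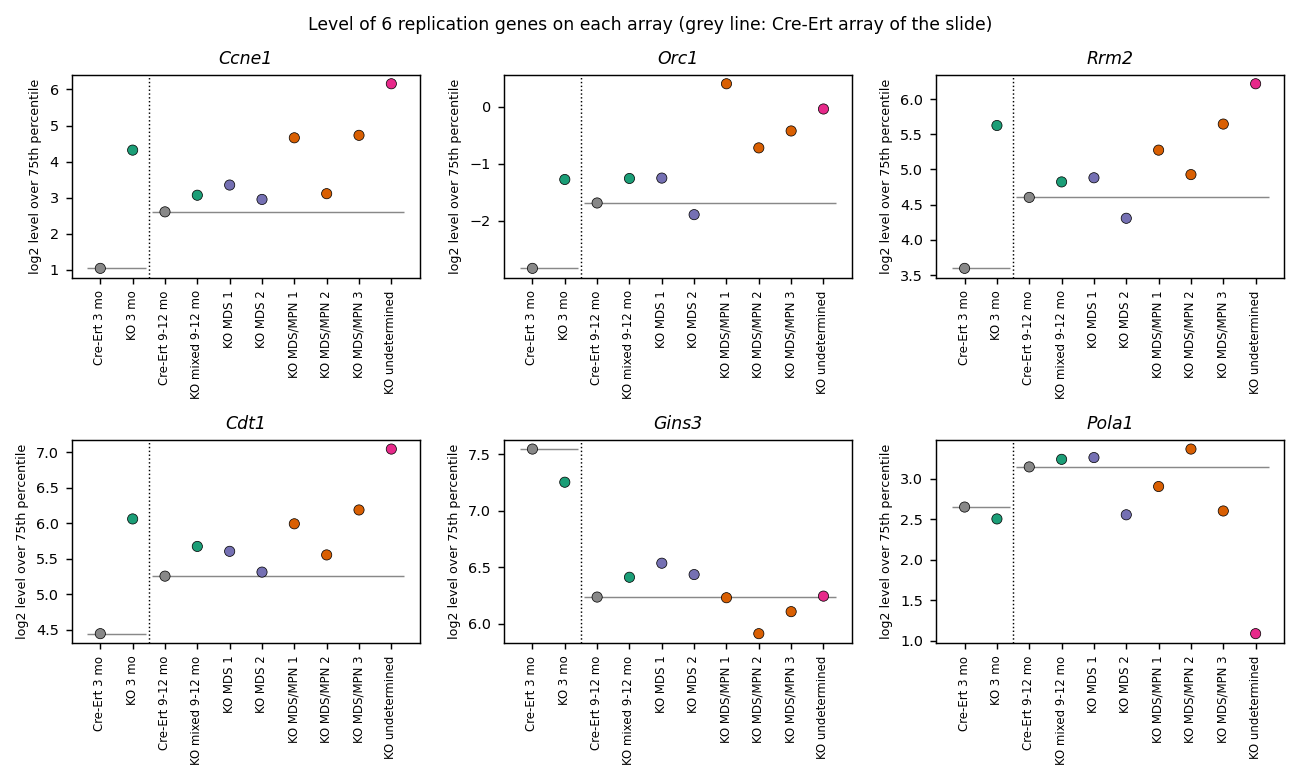
Level (log2 over the array's 75th percentile) of the genes with the 4 highest and the 2 negative differences between 8 deleted and 2 control arrays, 1 point per array, with a grey line at the control array of each slide. Ccne1 runs from 1.05 to 6.16, Cdt1 lies above the line of its slide on all 8 deleted arrays (KO), and Pola1 stands apart at 1.09 on the undetermined array.

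The promoters of 4 of these 6 genes are shown. They are those with an E2F-type match as defined below (Orc1, Gins3 and Pola1) and that of Ccne1, which had the largest difference. Rrm2 and Cdt1, which like Ccne1 had no such match, are not shown. RefSeq promoters (GRCm38.p6) were matched for 34 of the 43 genes, and the 250 bases before each transcription start were searched on both strands for CCAAT and for an E2F-type motif, taken as TTTGGCGC, TTTCGCGC, TTTCCCGC or TTTGCCGC. The E2F-type motif was found in 9 of the 34 genes (26.5%) and in 2.16% of the 27025 genes with a promoter, and CCAAT in 64.7% and 37.5%. The genes with an E2F-type match were Mcm6, Mcm5, Mcm7, Orc1, Rfc3, Gins3, Cdc6, Uhrf1 and Pola1. Capitals mark these matches below, each read on the gene's strand.
Orc1 (chr4:108579204-108579453, plus strand): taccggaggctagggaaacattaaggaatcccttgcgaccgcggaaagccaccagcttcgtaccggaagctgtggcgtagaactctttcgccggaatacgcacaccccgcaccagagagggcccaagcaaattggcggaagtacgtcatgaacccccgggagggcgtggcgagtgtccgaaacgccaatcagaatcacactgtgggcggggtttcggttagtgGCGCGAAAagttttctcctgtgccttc
Gins3 (chr8:95633309-95633558, plus strand): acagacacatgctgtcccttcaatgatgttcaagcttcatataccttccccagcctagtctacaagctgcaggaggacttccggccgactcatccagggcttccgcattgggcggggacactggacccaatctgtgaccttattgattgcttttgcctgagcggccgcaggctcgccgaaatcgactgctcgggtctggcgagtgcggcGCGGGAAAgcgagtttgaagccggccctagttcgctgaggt
Pola1 (chrX:93632156-93632405, minus strand): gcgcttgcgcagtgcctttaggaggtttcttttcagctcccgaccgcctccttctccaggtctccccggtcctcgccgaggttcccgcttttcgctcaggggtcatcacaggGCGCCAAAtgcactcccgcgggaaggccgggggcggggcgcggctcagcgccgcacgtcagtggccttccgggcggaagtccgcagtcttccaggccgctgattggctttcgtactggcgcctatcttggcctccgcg
Ccne1 (chr7:38107491-38107740, minus strand): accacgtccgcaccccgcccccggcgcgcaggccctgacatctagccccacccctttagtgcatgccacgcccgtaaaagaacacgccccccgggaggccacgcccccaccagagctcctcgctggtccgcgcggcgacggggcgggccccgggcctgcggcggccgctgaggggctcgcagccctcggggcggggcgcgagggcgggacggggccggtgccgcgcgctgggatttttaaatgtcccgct
The match began 27 bases before the start in Orc1, 41 in Gins3 and 138 in Pola1, and the Ccne1 window held none of these letters. The match did not part the genes by their difference between genotypes: the median was 0.57 in the 9 genes with one and 0.57 in the 25 without. Orc1, with the second largest positive difference, and Pola1 and Gins3, with the negative ones, all had a match, while Ccne1, Rrm2 and Cdt1, with the other large positive differences, had 0 E2F-type matches. The search took exact strings within 250 bases only, so a gene without a match may still hold E2F sites.

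At 3 months, 1 deleted array was set against 1 control array, so there is no test. Of 42 genes, 40 were higher on the deleted array and 25 at least 2-fold higher, beside 62.1% and 12.8% of all features; 0 genes were at least 2-fold lower, beside 12.1%. The median difference was 1.09 on the log2 scale, where that of all features was 0.23. Of the features well above background on all 10 arrays, as these genes are, 70.7% were higher, with a median of 0.31. Ccne1 was 9.68-fold higher (3.27 on the log2 scale, and 1.76 by its second probe), Rrm2 4.08-fold and Mcm10, an initiation factor at the origin, 3.42-fold. The genes that were lower were Gins3, by 0.29 on the log2 scale, and Pola1, by 0.15. By role, 5 of 6 licensing genes, 3 of 6 MCM genes, 3 of 6 helicase activators, 3 of 6 polymerase and primase genes, 2 of 6 clamp and loader genes, 2 of 3 RPA genes, both Okazaki fragment genes and 3 of 5 nucleotide genes were at least 2-fold higher.

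The count of 2-fold differences at 3 months depended on the scaling, with 13 under quantile normalization, 17 with arrays centred on the median and 11 with normexp, beside 8.9%, 8% and 2.32% of all features. The number of genes that were higher was 39, 40 and 39, beside 53.7%, 50% and 53.6% of all features. The median difference was 0.72 under quantile normalization and 0.62 under normexp. The 3-month control array was itself below the other control array for 39 of 42 genes, by a median of -0.57, while 49.1% of all features were lower and their median was 0.02. The 3-month deleted array was above the mixed deleted array for 33, beside 67.3% of features well above background on all 10 arrays. Slide, time and mouse cannot be told apart in these values.

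The mixed array, which the labels describe as several diseases together, was set against the control array of slide 2, also 1 array each. There 40 of 42 genes were higher, beside 52.1% of all features, but by a median of 0.19, and 0 genes were at least 2-fold higher, beside 4.51%, or 2-fold lower, beside 4.35%. Cdc45 was highest in this pair, at 0.53, followed by Ccne1 at 0.46 and Fen1 at 0.43. Cdc45 is the partner of MCM2-7 and GINS in the moving helicase, and Fen1 cuts the flaps of Okazaki fragments. The genes that were lower were Rfc2 and Tk1, each by 0.04 on the log2 scale. This pair shares its control array with the comparison of the 6 disease arrays below.

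Between the 6 deleted arrays of disease and the control array at 9-12 months, 0 of 42 genes were called by limma, where 115 of 19597 features were (0.587%, 114 of them lower), and 0 genes had an unadjusted p under 0.05, beside 4.67% of features. The 115 features became 0 without MDS replicate 1 or MDS/MPN replicate 3, 4 without MDS replicate 2, 12 without the undetermined array and 215 without MDS/MPN replicate 2. The median difference was 0.15, with 34 of 42 above 0, beside a median of -0.01 and 48.8% over all features. Under quantile normalization the median was -0.0025, so the median at 9-12 months had no settled direction. The 6 arrays straddled the control array for 39 genes. For Ccne1, Cdt1 and Orc2 all 6 lay above it, 3 of 42 genes beside 9.29% of features, and for 0 genes did all 6 lie below it, beside 13.9%. A feature could pass the filter through the control array alone, whereas the 42 genes were well above background on every array. The shares of features called, or with all 6 arrays below the control, therefore include features unlike these genes.

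**Figure D3:**
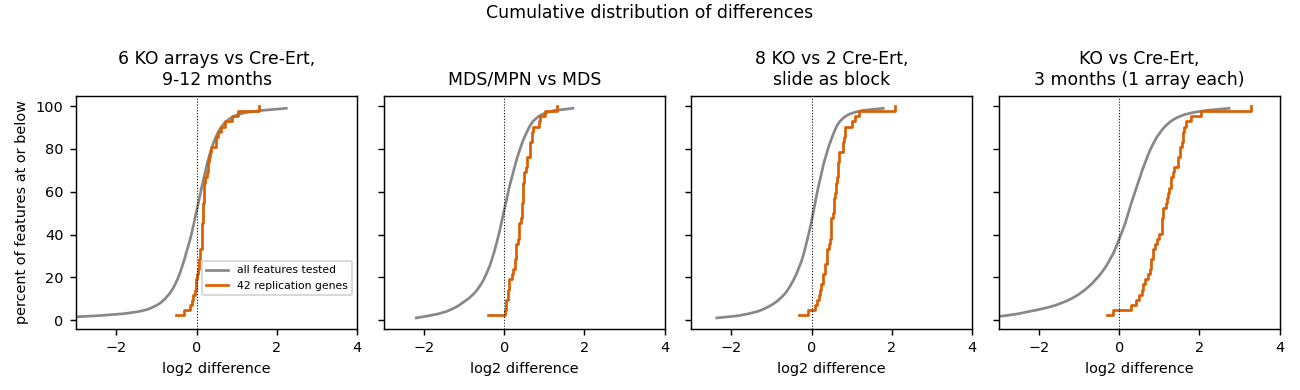
Cumulative share (percent, vertical axis) of the replication genes (orange) and of all features tested (grey) at or below each log2 difference (horizontal axis) in 4 comparisons. The orange curve is shifted least for the 6 deleted arrays against the control at 9-12 months (median 0.15) and most for the 1-array pair at 3 months (median 1.09).

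Of the roles with more than 1 gene tested, origin licensing had the highest median difference in this comparison, 0.48. Orc1 was -1.69 on the control array, -1.25 and -1.89 on the MDS arrays, 0.41, -0.72 and -0.42 on the MDS/MPN arrays and -0.04 on the undetermined array. Its difference was 1.04 ± 0.77 (SE, n = 6 and 1), and MDS replicate 2 lay below the control. Orc2, another subunit of the complex, was -0.41 on the control array and between 0.06 and 1.15 on the 6 deleted arrays, with a median of 0.41. It differed by 0.88 ± 0.48, with no overlap. Cdt1 was 5.25 on the control array and ran from 5.31 to 7.05 over the 6, with a median of 5.80. It differed by 0.70 ± 0.62, with MDS replicate 2 nearest to the control and the undetermined array farthest from it. Orc6, Cdc6 and Gmnn, whose product Geminin holds Cdt1 back, differed by 0.14, 0.26 and 0.15. A second Cdc6 probe, also well above background on all 10 arrays, differed by -0.12.

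Of the MCM helicase genes, which encode the ring that unwinds DNA, none had all 6 deleted arrays on one side of the control. Mcm6 was 7.73 on the control array and between 7.47 and 8.08 on the 6 deleted arrays, a difference of 0.08 ± 0.41. At 3 months it was 8.13 on the control and 8.96 on the deleted array, the highest value of the 10. The other 5 differed between -0.02 for Mcm4 and 0.36 for Mcm2 at 9-12 months. Mcm4 also varied least over those 6 arrays of all 42 genes, with an SD of 0.16.

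Among the helicase activators, Cdc45 differed by 0.53 and Mcm10 by 0.30 at 9-12 months, while the 4 GINS genes lay between -0.03 for Gins1 and 0.32 for Gins2. Gins3 did not follow its partners. It was 6.24 on the control array, 6.54 and 6.44 on the MDS arrays, 6.23, 5.91 and 6.11 on the MDS/MPN arrays and 6.24 on the undetermined array. Its highest values were on slide 1, at 7.55 on the control and 7.25 on the deleted array. Gins3 was thus the gene whose maximum lay on the 3-month control array, where 24 other genes had their minimum.

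Polymerase and primase genes had differences on both sides of 0. Pola1 was 3.15 on the control array, 3.26 and 2.56 on the MDS arrays, 2.90, 3.37 and 2.60 on the MDS/MPN arrays and 1.09 on the undetermined array. Its difference of -0.52 ± 0.76 rests on the undetermined array: without it the difference was -0.21. Prim1, the catalytic subunit of primase, was 4.61 on the control array and between 4.02 and 4.69 on the 6, a difference of -0.16 ± 0.41. Pold1, the catalytic subunit of polymerase delta, was 5.60 on the control and between 5.21 and 6.32, a difference of 0.20 ± 0.52. Pola2, the accessory subunit of polymerase alpha, differed by 0.48, Prim2 by 0.18 and Pole by 0.08.

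In the clamp and clamp loader, Pcna had the most negative difference and Rfc5 the highest (0.29). Pcna, the sliding clamp, was 6.82 on the control array and 5 of 6 deleted arrays lay below it, between 6.20 and 6.65, with the undetermined array at 6.83. Its difference was -0.32 ± 0.41. Rfc2, a loader subunit, was 5.36 on the control and between 4.76 and 5.62, a difference of -0.11 ± 0.46. Rfc3 and Rfc4 each differed by 0.19. Rfc1, the large subunit, was 4.29 on MDS/MPN replicate 2 and between 1.63 and 2.79 on the other 9 arrays. That array also had the highest 75th percentile and share of probes above background, and their part in the value of Rfc1 was not tested.

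The single-strand binding genes differed by 0.05 to 0.16. Rpa1, the largest subunit of replication protein A, was 6.20 on the control array and between 5.90 and 6.75 on the 6 deleted arrays. Of the Okazaki fragment genes, Fen1 was 5.77 on the control and between 5.30 and 7.12 (0.29 ± 0.67), and Lig1, the ligase, differed by -0.01. Of the nucleotide genes, Tk1, the thymidine kinase, was 5.55 on the control and between 4.80 and 6.52 (0.14 ± 0.71). Rrm2 differed by 0.61 and Dut, which removes dUTP, by 0.49, while Rrm1 and Tyms differed by 0.04 and -0.08. Uhrf1, which brings Dnmt1 to newly copied DNA, was 5.91 on the control and between 5.37 and 6.83 (0.14 ± 0.54). A second Uhrf1 probe, also well above background on all 10 arrays, differed by -0.014. In each of these genes the 6 arrays overlapped the control, and the undetermined array was the highest of the 6 except in Rrm1 and Tyms.

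**Figure D4:**
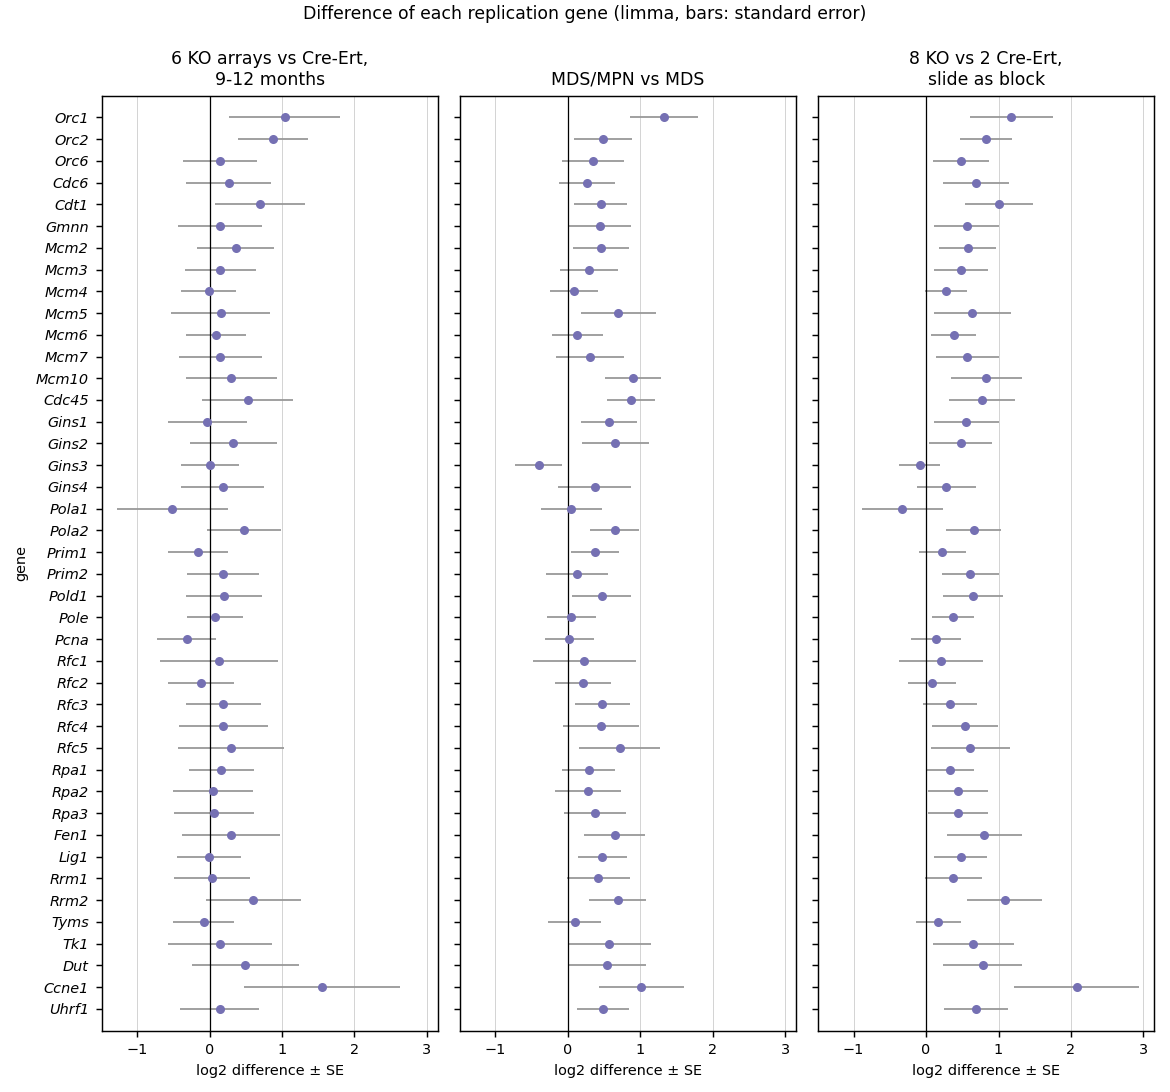
Log2 difference of 42 replication genes with its standard error (bars) in 3 limma comparisons, genes in the order of their roles. In the middle panel 41 of 42 points lie to the right of 0, with Gins3 at -0.40 as the exception, and in the right panel Ccne1 lies farthest out at 2.08.

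Between diseases, 41 of 42 genes were higher in MDS/MPN than in MDS (3 and 2 arrays), with a median of 0.45, beside 48.7% of all features and a median of -0.02. The median was 0.23 under quantile normalization and 0.22 under normexp. None of the 42 was called by limma, nor was any of 20723 features (0%). Without adjustment 2 genes had p under 0.05, beside 4.44% of features. They were Orc1, at 1.33 ± 0.47, and Cdc45, at 0.87 ± 0.33 (SE, n = 3 and 2), both with an adjusted p = 0.992. Cdc45 was -0.48 and -0.64 on the MDS arrays and 0.52, 0.14 and 0.26 on the MDS/MPN arrays, with no overlap. Mcm10 was 3.60 and 2.77 against 4.10, 4.08 and 4.07, a difference of 0.90 ± 0.38, also with no overlap. Ccne1 differed by 1.01 ± 0.59, and MDS/MPN replicate 2 lay between the MDS arrays.

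All 3 MDS/MPN arrays were above both MDS arrays for 8 of 42 genes (19.0%), beside 7.74% of features: Orc1, Mcm10, Cdc45, Pola2, Prim1, Lig1, Rrm2 and Uhrf1. All 3 were below both for 1 gene, Gins3 (-0.40 ± 0.32), beside 12% of features. The first count was 10 under quantile normalization, 12 with arrays centred on the median and 11 with normexp, beside 8.85%, 8.19% and 8.87% of features, and Orc1, Mcm10, Cdc45 and Pola2 were in all 4 sets. Gins3 was the 1 gene below under each of them. Arrays decided the count: it was 28 without MDS replicate 1 (17.9% of features), 36 without MDS/MPN replicate 2 (39.5%) and 8 without MDS replicate 2 (12.9%), MDS/MPN replicate 1 (10.3%) or MDS/MPN replicate 3 (9.85%). The median difference was 0.20 without MDS replicate 2 and 0.66 without MDS/MPN replicate 2. The diseases lay in different lines of the slide, so disease and line cannot be told apart.

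The genotype difference was also compared between times. The deleted against control difference at 9-12 months (6 and 1 arrays) minus that at 3 months (1 and 1) had a median of -0.92 over the 42 genes, with 2 above 0, Gins3 at 0.30 and Orc2 at 0.03. The median of all features was -0.23, with 37.3% above 0. No replication gene was called by limma, nor was any of 23291 features (0%), and 0 genes had an unadjusted p under 0.05, beside 4.98%. Ccne1 had the most negative value, -1.72. Both differences rest on 1 control array each, and slide and time cannot be told apart.

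Other genes of DNA synthesis were counted from lists made by function. In the fit of 8 deleted against 2 control arrays, 0 genes of any such list were called. Of all features, 53.3% were above 0 in this fit, with a median of 0.03. Of 14 other licensing and firing genes, 10 were above 0 with a median of 0.41, and the largest was Ticrr, an activator of origin firing, at 1.41 ± 0.44 (SE, adjusted p = 0.62 by limma). Of 19 other fork proteins, 16 were above 0 (median 0.39), with Chtf18, part of an alternative clamp loader, at 1.01 ± 0.49. Of 13 other nucleotide enzymes, 10 were above 0 (median 0.44). Rrm2b, the p53-induced subunit of ribonucleotide reductase, was at -1.34 ± 0.50 (adjusted p = 0.741 by limma). Of 28 genes of G1 to S control, 19 were above 0 (median 0.42), from E2f8, a repressor of E2F targets, at 1.76 ± 0.48 (adjusted p = 0.607 by limma) to Cdkn1c, a CDK inhibitor, at -1.84 ± 0.71. Of 8 chromatin assembly genes 7 were above 0 (median 0.45), with Chaf1a at 1.098 ± 0.444 and the lowest gene of the list at -0.91. Of 19 mitosis genes 19 were above 0, with a median of 0.62 and Plk1, a mitotic kinase, at 1.32 ± 0.55. Between MDS/MPN and MDS, all 19 mitosis genes were higher too (median 0.66), as were 10 of 14 licensing and firing genes (0.35), led by Recql4 at 1.20 ± 0.32, 17 of 19 fork proteins (0.43), 7 of 8 chromatin assembly genes (0.32) and 7 of 12 nucleotide enzymes (0.54). Of 28 genes of G1 to S control, 17 were higher, with a median of 0.07. Between these diseases, 48.7% of all features were higher, with a median of -0.02.

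The median and the summed level of 20 mitosis genes ordered the arrays differently. Their median was 2.35 on the undetermined array, where that of the replication genes was highest, and 3.94 on MDS/MPN replicate 2, where the replication median was 4.44. On the other arrays of slide 2 it lay between 2.47 and 3.03, and on slide 1 it was 1.20 on the control and 2.27 on the deleted array. Their summed level over the 75th percentile was instead highest on the undetermined array, at 669.9, with 428.4 on MDS/MPN replicate 2, between 233.8 and 509.9 on the other arrays of slide 2, and 154.3 and 429.2 on the control and deleted arrays of slide 1.

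Markers of other cell types and states also differed between arrays. The median of 9 blood stem cell markers was 3.73 on the 3-month control array and 1.35 on the 3-month deleted array. It was 2.60, 2.35, 2.80 and 2.97 on the control, mixed and MDS arrays, -0.15, 1.41 and 0.88 on the MDS/MPN arrays and -0.35 on the undetermined array. Their summed level over the 75th percentile was 79.3 and 145.7 on the control arrays and between 14.1 and 86.6 on the deleted arrays. Of the 9, 6 to 8 were well above background on each array, and Mecom and Fgd5 were so on 3 and 1 of the 10 arrays. The median of 10 erythroid markers was -0.70 and 1.98 on the control and deleted arrays of slide 1, 0.41, 0.95, 2.39 and 2.50 on the control, mixed and MDS arrays, 3.98, 1.02 and 3.62 on the MDS/MPN arrays and 5.18 on the undetermined array. Their summed level was 94.7 and 153.7 on the control arrays and between 83.1 and 473.3 on the deleted arrays, so on slide 1 the sum was lower on the deleted array (135.3) where the median was higher, and 7 to 10 of the 10 were well above background. The globin gene Hba-a1 was well above background on all 10 arrays.

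The arrays with the highest replication median, undetermined and 3-month deleted, thus had stem cell medians of -0.35 and 1.35. Each lay below the control of its own slide, which was 2.60 at 9-12 months and 3.73 at 3 months. MDS/MPN replicate 2 had a replication median below that of the 9-12 month control, and also a lower stem cell median than that control. MDS replicate 2, with the lowest replication median of slide 2 (4.18), had the highest stem cell median there (2.97) and an erythroid median of 2.50, so that both were above those of the control. Neutrophil granule markers had a median of 1.58 on the 9-12 month control and between 2.80 and 6.75 on the 7 deleted arrays of that slide. On the mixed array 5 of the 9 such markers compared were higher than on this control. Elane, Mpo, Prtn3 and Ctsg were lower there, with Mpo at 9.05 against 9.46. On MDS replicate 2, Elane, Mpo and Prtn3 were lower than on this control and the other markers of the list higher. The 3-month control array had Elane, Mpo, Prtn3 and Ctsg lower than this control and the others higher, with S100a8 at 4.24 against 1.06. On slide 1, 7 of 10 markers were higher on the deleted than on the control array, with a median difference of 0.74. S100a9, Ltf and Ngp were lower there. Immediate early genes, a sign of cell handling, had medians of 6.70 and 6.49 on slide 1, 5.45 on MDS/MPN replicate 2, and between -0.59 and 3.50 on the other arrays. The part of these markers in the replication values was not tested.

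**Figure D5:**
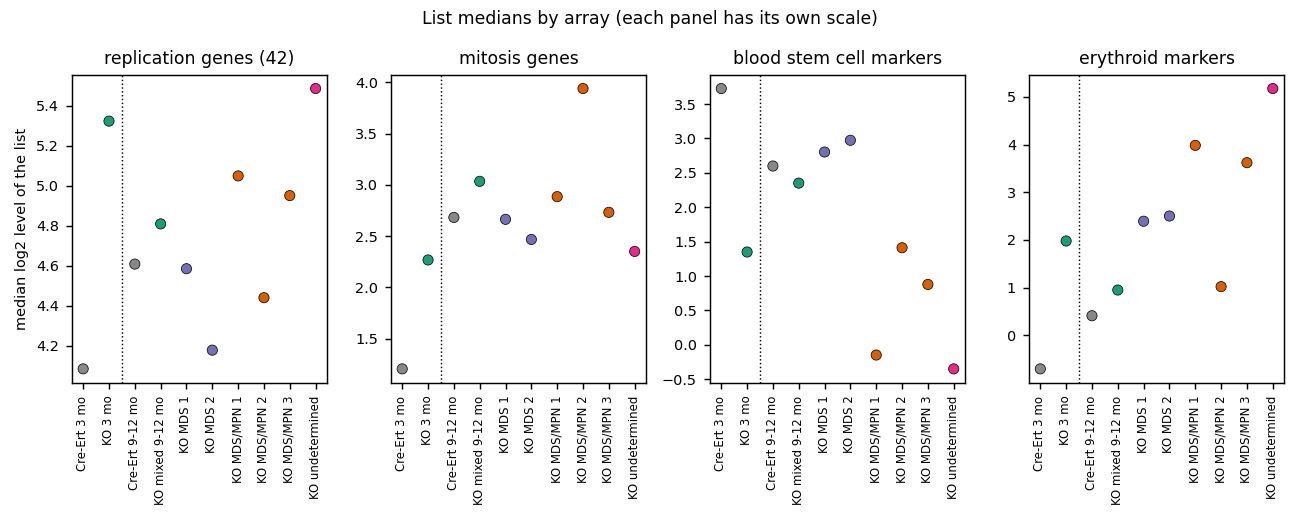
Median log2 level over the array's 75th percentile of 4 gene lists on each of the 10 arrays, 1 point per array; panels have separate vertical scales and the dotted line parts slide 1 from slide 2. The undetermined array has the highest replication (5.49) and erythroid (5.18) medians and the lowest stem cell median (-0.35). The mitosis median is highest on MDS/MPN replicate 2 (3.94), although the summed mitosis level, not plotted, is highest on the undetermined array (669.9).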

How the data were processed

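The deposited scanner files hold an intensity per spot, with background subtracted within the array and no scaling between arrays, per the file headers (Agilent Feature Extraction 10.7.1.1, protocol GE1_107_Sep09, design annotation mm9; the submitters' processing notes name version 9.1). The deposited value table holds a ratio to each array's 75th percentile, which was found by setting its columns against the scanner files. Its scale is not stated in the sources used here, and it was used as an alternative. Each array was labelled from 0.02 µg of RNA.

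Probes were named through RefSeq accessions (GRCm38.p6): 27650 of 55681. Control and outlier spots were left out, spots averaged and the brightest probe taken per gene. Values are log2 intensity minus the array's 75th percentile. A feature was tested when well above background on at least 50% of the arrays of a group compared. Tests used limma 3.58.1 (R 4.3.3), with Benjamini-Hochberg adjustment over all features at 0.05; the code was tested on simulated data. Where a group holds 1 array, it is assumed to vary as the others do. Figures used matplotlib 3.10.9 in Python 3.11.15. Precision is limited by how few arrays there are.

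Genes were chosen, as were the lists of other genes and markers, with earlier results of these data known. Values by array are given for genes called in any comparison, for up to 4 genes with the largest differences in each direction in the comparisons of genotype and of disease, and for the brightest gene of each role; others are given as counts and ranges, and Rfc1 was singled out after its values were seen. Alternatives covered scaling, background correction (normexp, offset 50, on median spot signals), the filter on dim probes, several probes per gene, test settings, the slide and each array left out.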

Additional observations from a re-analysis of the deposited data

Results flagged for a closer look

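Pola1, the catalytic subunit of polymerase alpha, had 1 array far from the others among the 6 deleted arrays of disease at 9-12 months. The undetermined array read 1.09 and the next lowest, MDS replicate 2, 2.56, a gap of 0.644 of the range of the 6 arrays. Of the 42 genes tested in this way it was the 1 gene with such a gap, and chance sets apart about 1 in 20 such groups.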

How the results depend on the processing

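No replication gene was called in any of the 4 limma comparisons under any alternative tried. For the 6 deleted arrays against the control, taking the control array by the value table's labels moved the median difference from 0.15 to 0.82. That control array lay on slide 1 and the 6 deleted arrays on slide 2, so genotype and slide cannot be told apart there. With only the deleted arrays from the line of the slide 2 control, the median was -0.18. With each array left out in turn it ranged from 0.06 to 0.28; between diseases the range was 0.20 to 0.66, over all arrays with the slide as a block 0.16 to 1.09, and between times -1.05 to -0.81. In the pair at 3 months, 13 genes were at least 2-fold higher under quantile normalization. By the value table's labels the pairs changed places, with 0 genes and a median of 0.19 at 3 months and 25 genes and 1.09 in the mixed pair. The 115 features called for the 6 deleted arrays became 247 under quantile normalization and 0 with trend and robust settings, and ranged from 0 to 215 with each array left out. The causes were not tested.

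Differences near 0 changed sign. For the 6 deleted arrays against the control, quantile normalization gave Gins3 -0.16, Mcm6 -0.10, Rpa1 -0.0092, Tk1 -0.066 and Uhrf1 -0.050; normexp gave -0.14, -0.12, -0.037, -0.027 and -0.038; and centring on the median gave Gins3 -0.065. The value table's control array, which lay on the other slide, gave Gins3 -1.30, Mcm6 -0.31, Prim1 0.043 and Rfc2 0.22. Both control arrays as 1 group gave Gins3 -0.65, Mcm6 -0.11 and Rfc2 0.051. With only the 2 MDS arrays, from the control's own line, Fen1 was -0.30, Mcm6 -0.048, Pold1 -0.19, Rpa1 -0.093, Tk1 -0.37 and Uhrf1 -0.31. Between diseases, Mcm6 was -0.064 and Pcna -0.21 under quantile normalization, -0.032 and -0.19 under normexp, and Pcna -0.0064 with centring. Over all arrays, Pcna was -0.17 under quantile normalization, -0.15 under normexp, -0.11 without the slide block and -0.065 with the slide as a random block. With each array left out, Gins3 ranged from -0.050 to 0.074, Tk1 from -0.024 to 0.32 and Uhrf1 from -0.019 to 0.27 for the 6 deleted arrays, Pcna from -0.20 to 0.25 between diseases, and Gins3 from -0.29 to 0.032 and Pcna from -0.23 to 0.79 over all arrays. No paired analysis was possible because the labels give no replicate numbers that groups share. The number of arrays and, in 3 groups of the comparison of times, the single array limit what can be told.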
